A study of Mus musculus with 6 samples.

Results

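The microRNA genes outside the Mir17-92 cluster were followed in D10 cells, a cloned mouse CD4+ helper T cell line, that were held for 24 h at 26°C (cold-acclimated, 3 replicates) or for 24 h at 37°C (non-acclimated, 3 replicates). D10 cells recognize conalbumin and grow in medium with IL-2. All 6 libraries are labelled as D10 cells, and whether they hold the same clone was not tested. The study describes the replicates as prepared independently of each other. Poly(A)+ RNA was sequenced as paired-end reads, and the deposited values are TPM, reads per gene divided by the gene's length and scaled to the same total in every library.

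The genes were chosen by name, size and level. Of 41079 genes in the table, 1224 had a microRNA symbol and a span of fewer than 200 bases, and 1002 of these were at 0 in all 6 libraries. A TPM of at least 1 in at least 2 of the 6 libraries was reached by 139, and 4 of those lay in the Mir17-92 cluster on chromosome 14, which left 135 microRNA genes, 133 numbered Mir genes and 2 let-7 genes. The level in these same libraries chose them, so their being detected is a description. Just inside the threshold were Mir3473d, Mir6397 and Mir423, with a second-highest TPM of 1.026, 1.053 and 1.06, and just outside were Mir8119 at 0.6443 and Mir8102 at 0.598.

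A microRNA is cut from a hairpin in a longer primary transcript. The Microprocessor, made of Drosha and Dgcr8, releases the hairpin in the nucleus, Xpo5 exports it, Dicer1 removes its loop, and an Argonaute protein holds the mature strand and pairs it with target mRNAs, mainly through a short stretch near its 5′ end called the seed. Many hairpins lie in introns or exons of other genes and are transcribed with them. In T cells, microRNAs tune activation, proliferation and helper subset choice. Mature microRNAs are too short for these libraries and carry no poly(A) tail, so a read assigned to a microRNA gene here came from a longer RNA covering the hairpin locus, and its level is not that of the mature microRNA.

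These loci gave few reads. The number of reads behind each TPM was recovered from the steps in the values, and the libraries held between 16900261 and 31291839 reads over all genes. The 135 microRNA genes held 11215 reads over the 6 libraries together, with a median of 10 reads per gene. Under 10 reads were seen for 66 of them, at least 20 for 40 and at least 100 for 16, while 14 genes rested on 2 reads in all. The median length was 78 bases, and 1 read on 82 bases was worth between 1.014 and 1.779 TPM depending on the library, so the threshold of 1 TPM was close to 1 read. The rule was met through libraries of both conditions by 104 genes, through cold-acclimated libraries alone by 20 and through non-acclimated libraries alone by 11.

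The libraries also differed by replicate. Cd4, the coreceptor that gives helper T cells their name, was at 309.7 TPM in non-acclimated and 328.0 TPM in cold-acclimated replicate 3, and between 0.03507 and 1.299 TPM in the other 4 libraries, against the description of the line as CD4+. Trac, the T cell receptor alpha constant gene, was at 14.96 and 12.82 TPM in both replicate 2 libraries and between 128.5 and 206.9 TPM in the others. The T cell gene Cd3e was at 476.3 to 874.0 TPM and the helper T cell regulator Gata3 at 387.1 to 751.5 TPM, and 12 of 14 T cell markers, Cd4 and Trbc1 being the exceptions, reached 1 TPM in all libraries. No B cell marker passed 0.7786 TPM, and the 5 macrophage markers summed to 2.456 to 15.91 TPM without and 2.693 to 21.22 TPM with cold acclimation, nearly all from Lyz2 and Cd68. The 4 erythroid markers summed to 79.94 to 485.4 and 61.32 to 474.5 TPM, nearly all from Hba-a1 and highest in both replicate 3 libraries, with Hbb-bs and Hbb-bt at 0. Whether these differences play a part in the results was not tested, and the counts of changed microRNA genes are given also without both replicate 3 libraries.

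The mature sequences of the genes on which the results turn are shown so that shared seeds can be seen, with bases 2 to 8, the seed, in capitals. They were taken from RefSeq annotation of GRCm38.p6, which gave 205 mature sequences for 128 of the 135 genes, read 5′ to 3′. Of 197 different seeds, 7 were shared by more than 1 gene.
miR-106b-5p: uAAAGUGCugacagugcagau
miR-93-5p: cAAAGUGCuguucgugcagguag
miR-25-3p: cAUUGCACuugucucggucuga
miR-130b-3p: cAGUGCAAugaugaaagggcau
miR-130c: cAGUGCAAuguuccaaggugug
miR-301a-3p: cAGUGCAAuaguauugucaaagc
miR-301a-5p: gCUCUGACuuuauugcacuacu
miR-301b-5p: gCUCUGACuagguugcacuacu
miR-23a-3p: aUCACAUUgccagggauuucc
miR-24-3p: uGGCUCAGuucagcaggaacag
miR-3074-5p: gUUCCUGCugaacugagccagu
miR-142a-5p: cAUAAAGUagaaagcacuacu
miR-142a-3p: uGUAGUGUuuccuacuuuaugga
miR-142b: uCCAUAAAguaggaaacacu
let-7g-5p: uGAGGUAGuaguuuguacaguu
let-7i-5p: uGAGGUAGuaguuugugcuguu
miR-3061-5p: cAGUGGGCcgugaaagguagcc
miR-3058-5p: uCAGCCACggcuuaccuggaaga
miR-6363: uGUAGACUggacuguccucaaa
miR-1905: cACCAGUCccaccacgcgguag
The AAAGUGC seed joined Mir106b and Mir93, both within Mcm7, and AGUGCAA joined Mir130b, Mir130c and Mir301, on different chromosomes. Mir301 and Mir301b shared CUCUGAC, and Mirlet7g and Mirlet7i shared GAGGUAG. For Mir301b the annotation gave miR-301b-5p alone, so the seed of any other product of Mir301b could not be compared with AGUGCAA. miR-24-3p and miR-3074-5p come from opposite strands of the same loci, and the reverse complement of each lies inside the hairpin of the other. The same holds for miR-142b and the hairpin of Mir142.

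Where the 135 genes lie was read from GENCODE annotation of GRCm39, in which all 130 genes matched by identifier had the deposited start, end and strand. By the deposited positions, 91 of the 135 had a longer gene over them on the same strand. Mir3074-1, Mir3061 and Mir7652 did not, as their GENCODE hosts do not cover them in those positions. Each was counted at 1 position, an exon on the same strand first, then opposite an exon, then an intron on the same strand, then opposite an intron. Mir135a-1, Mir1938 and Mir677, counted opposite exons, thus also lie in same-strand introns. In this order an intron of a gene on the same strand held 71 of them, an exon on the same strand 33, the position opposite an exon of a gene on the other strand 20, the position opposite an intron 9, and 2, Mir23a and Mir8099-2, lay between genes. Reads were not spread in proportion. The 20 genes opposite an exon held 45.2% of all reads on the 135 genes and the 33 in an exon 35.0%, while the 71 intronic genes held 9.96%. Single genes weighed heavily in these shares. Mir762 held 2322 of the 5069 reads opposite an exon, and Mir682 held 1964 of the 3926 in an exon. The libraries were prepared with a strand-specific kit, but the strand setting of the counting is not stated in the sources used here, so reads of a microRNA gene cannot be told apart from those of a gene over the same bases.

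**Figure D1:**
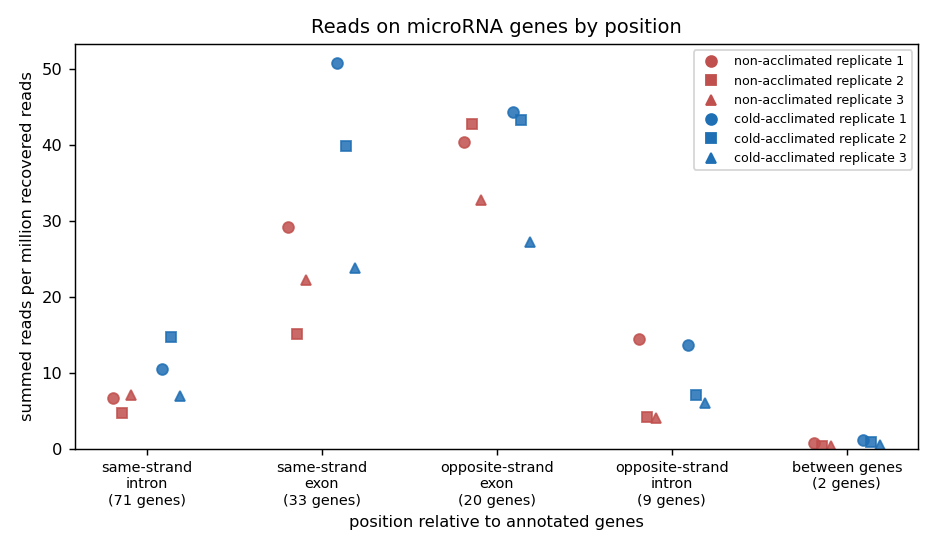
Summed reads on the microRNA genes in each library as CPM, scaled by the recovered reads of that library (vertical axis), by the position of the hairpin relative to annotated genes, in red for non-acclimated and blue for cold-acclimated libraries, with circles, squares and triangles for replicates 1, 2 and 3. The 71 intronic genes together stayed between 4.613 and 14.72 CPM, below the 20 genes opposite an exon, at 27.25 to 44.32, in every library.

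The 8 genes with the highest mean TPM held most of the signal, and none of them passed the test between the conditions. They held 68.6% of all reads on the 135 genes. Mir762 stood at the top. It had 275, 471 and 421 reads in non-acclimated replicates 1 to 3 and 399, 418 and 338 in the cold-acclimated ones, or 580.8 ± 153.8 and 551.2 ± 100.1 TPM (mean ± SD, n = 3 each). The groups overlapped, with a log2 fold change of -0.06 (SE 0.28, adjusted p = 0.90, limma). Its hairpin lies opposite coding sequence of Bcl7c, a subunit of the BAF chromatin remodelling complex.

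Mir682 had 339, 97 and 364 reads in non-acclimated and 704, 259 and 201 in cold-acclimated libraries, a spread within each condition wider than that between them (log2 fold change 0.46, SE 0.65, adjusted p = 0.65, limma). Its hairpin, annotated over the pseudogene Gm4149, is 98.96% identical over 96 bases to the mRNA of Rpl37a, a ribosomal protein gene. Rpl37a stood at 2758, 866.2 and 1194 TPM and at 3168, 1820 and 932.5 TPM in the same order of libraries, with its highest value, like that of Mir682, in cold-acclimated replicate 1. Mir703, opposite an intron of Cfap299, had 230, 61 and 99 reads against 256, 86 and 116, also with overlapping groups (log2 fold change 0.21, SE 0.65, adjusted p = 0.85, limma). It is 98.16% identical over 109 bases to the mRNA of Eef1a1, the translation elongation factor, which had between 13820 and 20380 TPM. Of the 117 genes with a hairpin sequence, these 2 and Mir692-2 and Mir8099-2 had such a near-identical copy in the mRNA of a gene elsewhere, so reads could have been split between copies.

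Mir3064 lies in coding sequence of Ddx5, an RNA helicase that works with the Microprocessor, and had 73, 78 and 92 reads against 112, 220 and 65. The highest and the lowest of the 6 values were both cold-acclimated (log2 fold change 0.46, SE 0.46, adjusted p = 0.51, limma). Ddx5 itself rose, as described with the processing genes. Mir7652, in a UTR exon of the stress granule gene G3bp1, had 23, 37 and 41 reads against 15, 27 and 34, and in TPM its lowest non-acclimated value, 59.91, was just above the highest cold-acclimated one, 59.48 (log2 fold change -0.51, SE 0.30, adjusted p = 0.26, limma).

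Mir6340, opposite coding sequence of the endosomal GTPase gene Rab22a, had 84, 133 and 132 reads in non-acclimated and 264, 198 and 196 in cold-acclimated libraries. The groups did not overlap, at 110.4 ± 22.82 and 200.9 ± 49.52 TPM (mean ± SD, n = 3 each), but the log2 fold change of 0.85 (SE 0.27, adjusted p = 0.059, limma) missed the threshold. After scaling by the median of ratios it passed, at 1.26 with an adjusted p of 0.026 (limma). Rab22a passed in both, at 40.50 TPM without and 82.85 TPM with cold acclimation.

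Mir142 is a haematopoietic locus whose products are among the abundant microRNAs of T cells. It had 9, 23 and 60 reads in non-acclimated and 38, 83 and 36 in cold-acclimated libraries, with overlapping groups (log2 fold change 0.97, SE 0.53, adjusted p = 0.23, limma). Non-acclimated replicate 3 was higher than cold-acclimated replicate 1 and 3. Without both replicate 3 libraries the log2 fold change was 1.70 and passed the threshold (adjusted p = 0.042, limma). Mir142b, on the opposite strand of the same bases, had 64, 42 and 160 reads against 81, 101 and 44 (log2 fold change -0.16, SE 0.46, adjusted p = 0.84, limma). Both lie over an exon of the noncoding host gene Mir142hg, which has the strand of Mir142.

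**Figure D2:**
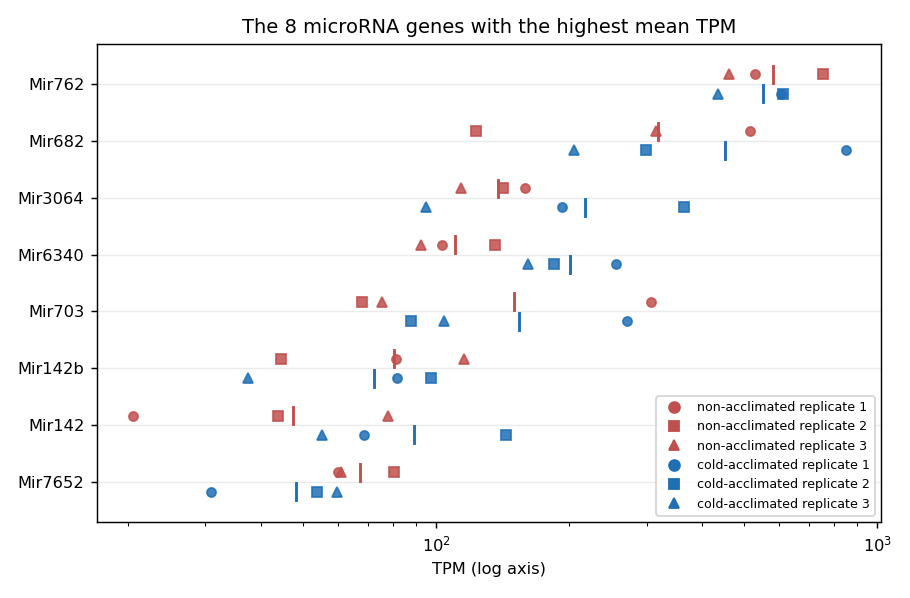
TPM (horizontal log axis) of the 8 microRNA genes with the highest mean TPM in each library, red for non-acclimated and blue for cold-acclimated, with vertical bars at the mean of each condition. The conditions overlap in 6 genes. In Mir6340 the cold-acclimated libraries lie above, and in Mir7652 below, the non-acclimated ones.

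The conditions were compared with limma on log2(TPM + 1) over 12227 genes whose TPM averaged 1 or more, and a gene was called where the adjusted p was under 0.05 and the log2 fold change at least 1 in size. Of the 135 microRNA genes 103 reached this average and 32 did not. Of the 103, 16 rose, or 15.5%, beside 2.63% of all genes tested, and 8 fell, or 7.77%, beside 16.0%. The median log2 fold change of the 103 was 0.48, against -0.34 for all genes. It was also 0.48 with the 14 genes that had no read in a condition set to their fold against a floor of 3 reads. Those folds stay on the same side of the median, so this step could not have moved it. Of the 24 called, 10 had met the rule through the libraries of their higher condition alone and so had to differ in that direction, and 14 had fewer than 20 reads in all. Among the 87 tested genes that met it through both conditions 9 rose and 5 fell. Groups without overlap were seen for 19 of the 103 on the higher side and 11 on the lower, beside 9.69% and 31.4% of all genes. These counts include genes that met the rule through 1 condition alone, such as Mir3058, Mir301b and Mir7027. For them the rule itself favoured a gap, so the counts cannot be compared directly with those shares.

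The counts differed between alternatives. With voom on the recovered reads, which gives low counts less weight, 3 rose (2.91%) and 4 fell (3.88%), beside 3.34% and 13.9% of all genes. These 7 were Mir3058, Mir301b and Mir3061, which rose, and Mir6363, Mir1905, Mir6357 and Mir6924, which fell. Of them, Mir3058 and Mir301b had met the rule through cold-acclimated libraries alone, which fixed their direction. Scaling by the median of ratios moved the median of all genes from -0.34 to 0.03 and gave 19 that rose and 7 that fell, beside 6.87% and 8.6% of all genes, and for the genes of the whole table it turned 321 up and 1954 down into 840 up and 1052 down. Without both replicate 3 libraries, a choice made after their Cd4 was seen, 27 rose and 10 fell, beside 5.34% and 25.3% of all genes, and 22 of the 24 called genes were called again, Mir130c and Mir1898 being the exceptions. With a pseudocount of 0.1, 13 rose and 8 fell, beside 2.58% and 16.0% of all genes, and Mir130b, Mir677 and Mir7666 lost their call. With the replicate as a block 21 rose and 8 fell, beside 3.75% and 21.9% of all genes.

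Calls also depended on single libraries. Without non-acclimated replicate 1, 10 of the 24 were kept, without replicate 2, 7, and without replicate 3, 20. Without cold-acclimated replicate 1, 8 were kept, without replicate 2, 9, and without replicate 3, 21. Of all genes, 321 rose and 1954 fell with every library. Without non-acclimated replicates 1, 2 and 3 in turn these totals were 78 and 527, 59 and 345, and 395 and 1820. Without cold-acclimated replicates 1, 2 and 3 they were 72 and 450, 78 and 600, and 459 and 2725. The adjusted p of the lost calls lay between 0.050 and 0.14 (limma), and no called gene changed its sign. Leaving out 1 library cannot turn the sign of a gene whose conditions do not overlap, so for such genes this outcome was fixed. Lost without replicate 1 or replicate 2 of either condition were Mir128-1, Mir130b, Mir1839, Mir1898, Mir1938, Mir23a, Mir24-2, Mir3074-1, Mir343, Mir6385, Mir677 and Mir7666. Mir130c and Mir3061 were lost without either of the same non-acclimated libraries and without cold-acclimated replicate 1 or 2, respectively. Mir6357 was lost without non-acclimated replicate 2 or cold-acclimated replicate 1, Mir6924 without either replicate 2, and Mir7679 without cold-acclimated replicate 1. Lost without a replicate 3 library were Mir106b, Mir1839, Mir1898 and Mir24-2 for the non-acclimated one and Mir1898, Mir677 and Mir7666 for the cold-acclimated one, and Mir106b was also lost without cold-acclimated replicate 1 and without either replicate 2. Kept in each of these 6 fits were Mir6363 and Mir1905, which fell, and Mir3058, Mir301b, Mir6948 and Mir7027, which had met the rule through 1 condition alone, so that being kept is no sign of stability for them.

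**Figure D3:**
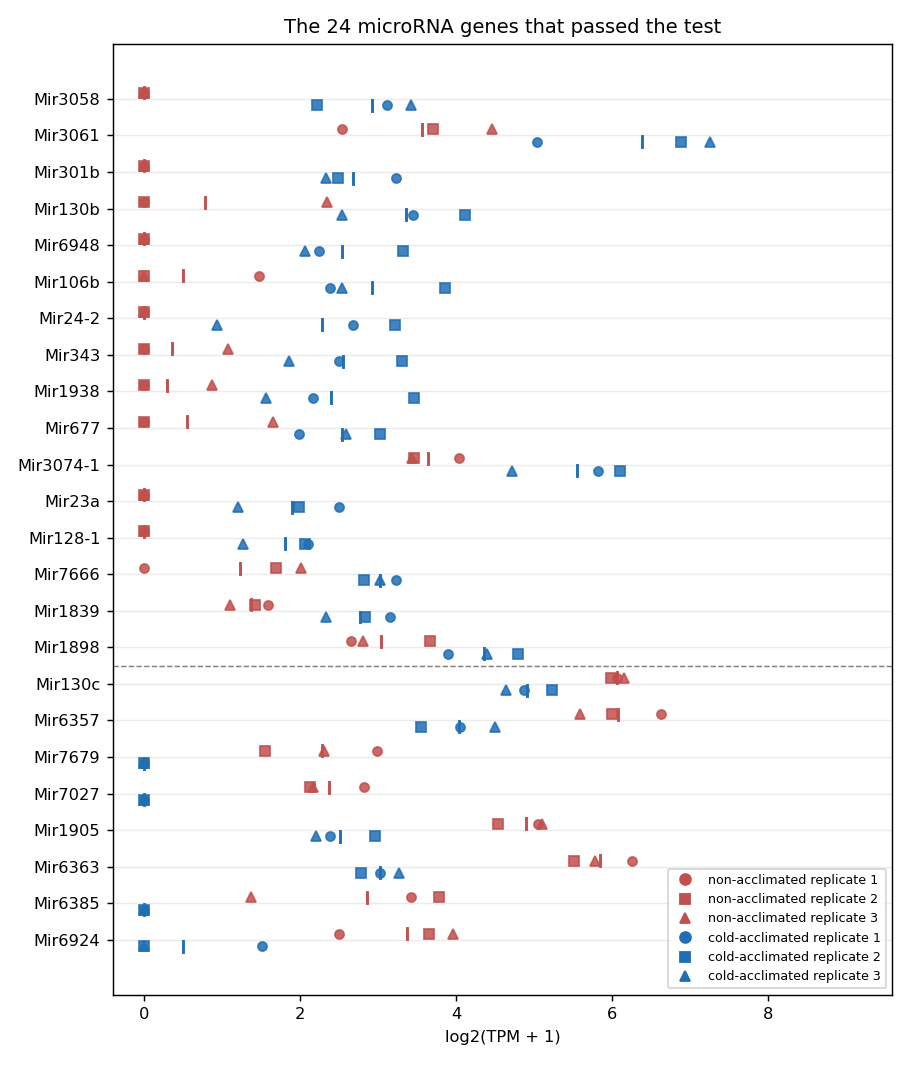
log2(TPM + 1) in each library (horizontal axis) of the 24 microRNA genes that passed the test, red for non-acclimated and blue for cold-acclimated, with vertical bars at the mean of each condition. The 16 genes above the dashed line rose and the 8 below it fell, and genes with all values of a condition at 0 rest on few reads.

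Of the 8 genes that fell, 5 lie opposite exons of genes that fell too. Mir6363 (chr16:50547495-50547608, plus strand, GRCm39), opposite an exon of the long noncoding RNA gene Dubr, had 59, 42 and 74 reads in non-acclimated and 7, 6 and 10 in cold-acclimated libraries. Every cold-acclimated value was far below every other, and the log2 fold change was -2.83 (SE 0.28, adjusted p = 0.0067, limma). Dubr fell from 27.35 ± 10.78 to 7.244 ± 2.193 TPM (mean ± SD, n = 3 each, adjusted p = 0.017, limma).

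Mir1905 (chr3:88443608-88443689, minus strand) lies opposite coding sequence of Mex3a, which encodes an RNA-binding protein. It had 18, 15 and 33 reads against 3, 5 and 3, without overlap (log2 fold change -2.38, SE 0.30, adjusted p = 0.0070, limma). Mex3a fell with a log2 fold change of -1.62 (adjusted p = 0.011, limma). Mir6357 (chr18:70649857-70649960, plus strand), opposite coding sequence of Poli, the DNA polymerase iota gene, had 70, 54 and 59 reads against 14, 10 and 23 (log2 fold change -2.04, SE 0.36, adjusted p = 0.012, limma). Poli fell with a log2 fold change of -1.77 (adjusted p = 0.011, limma).

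Mir130c (chr9:53312105-53312186, minus strand) fell, while Mir130b, of the same seed, rose. It lies opposite a UTR exon of the O-glucosyltransferase gene Poglut3 and had 37, 42 and 69 reads against 20, 27 and 20. In TPM the conditions did not overlap, at 66.03 ± 3.815 and 29.56 ± 6.453 TPM (mean ± SD, n = 3 each), and the log2 fold change was -1.15 (SE 0.24, adjusted p = 0.018, limma). After median of ratios scaling it was -0.75 (adjusted p = 0.079, limma), which ends the call. Poglut3 fell with a log2 fold change of -1.34 (adjusted p = 0.016, limma) and lost its call under the same scaling.

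Mir6385 (chr9:58128433-58128537, plus strand), opposite a UTR exon of Pml, the nuclear body gene, had 7, 11 and 2 reads in non-acclimated libraries and 0 in all cold-acclimated ones. Against a floor of 3 reads over the condition, its reads scaled to library depth were 6.26-fold lower (adjusted p = 0.020, limma). Such a fold takes the reads of the other condition as exact, so it is no lower limit. Mir6385 had met the rule through non-acclimated libraries alone, which fixed this direction. Pml fell from 69.04, 108.6 and 24.30 TPM to 11.62, 11.03 and 11.46 TPM (adjusted p = 0.023, limma).

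Across the 11 genes opposite an exon that had at least 20 reads and a tested gene on the other strand, the log2 fold change of the microRNA gene and of that gene had a Pearson correlation of 0.94 and a Spearman correlation of 0.95, and 10 of 11 pairs had the same sign. The pairs share the 6 libraries and the same bases of the genome, and the values are a description. Not called but in the same direction as the gene on the other strand were Mir6381, with 43, 55 and 6 reads against 16, 19 and 7 opposite the interferon-induced gene Gbp2, Mir6244, with 12, 35 and 26 against 36, 70 and 25 opposite Zc3h12c, and Mir135a-1, with 2, 12 and 23 against 2, 9 and 4 opposite Glyctk. Mir7668, opposite Zfp27, was the pair of unlike sign, with log2 fold changes of 0.13 and -0.32, which after median of ratios scaling were 0.48 and 0.04 and so of like sign.

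**Figure D4:**
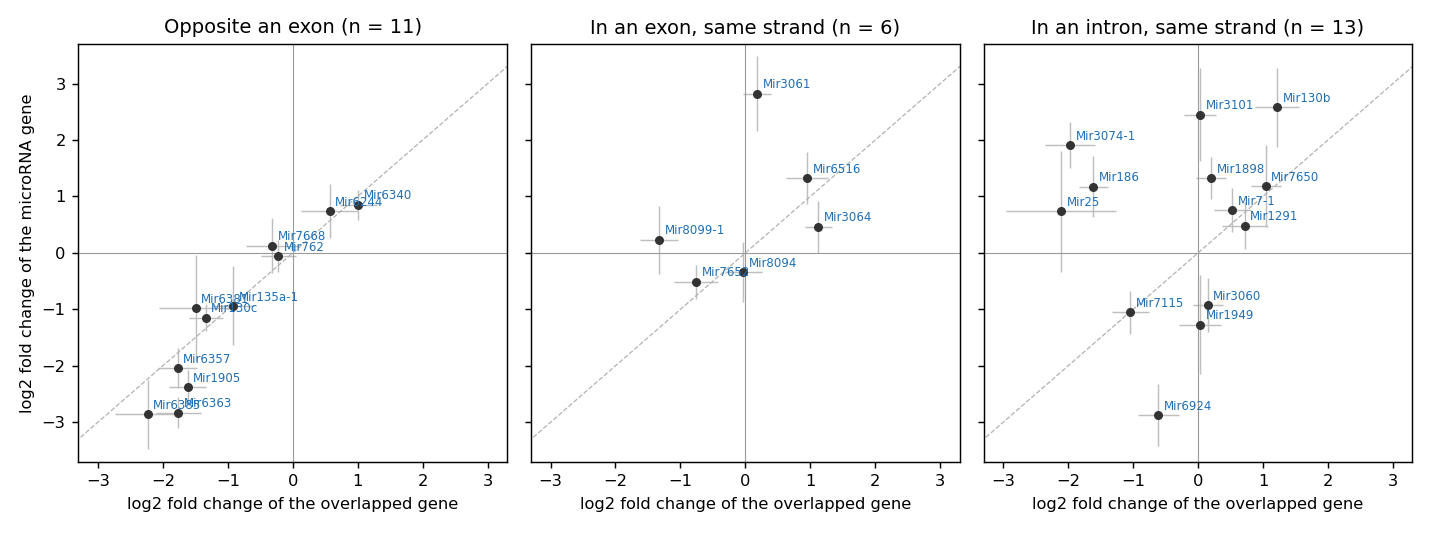
log2 fold change, cold-acclimated against non-acclimated, of microRNA genes with at least 20 reads (vertical axis) against that of the gene they overlap (horizontal axis), with bars of 1 SE and a dashed line of equal change. The 11 genes opposite an exon lie along the line, the 6 in an exon of the same strand less so, and the 13 in an intron are scattered, with Pearson correlations of 0.94, 0.39 and 0.12.

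For intronic genes the fold changes of the microRNA gene and its host lay farther apart, a difference between the classes that was not tested. Reads differed too, at 20 to 141 for these intronic genes and 20 to 2322 for those opposite an exon. Whether fewer reads lowered the correlation was not tested. Across the 13 with at least 20 reads and a tested host, the Pearson correlation was 0.12 and the Spearman correlation 0.26, and 8 of 13 pairs had the same sign. Mir3074-1 (chr13:63449013-63449097, minus strand) was the intronic gene with the most reads, with 9, 7 and 10 in non-acclimated and 41, 52 and 22 in cold-acclimated libraries. The groups did not overlap, and the log2 fold change was 1.91 (SE 0.40, adjusted p = 0.019, limma). Fancc, annotated around it on the same strand, a gene of the Fanconi anaemia DNA repair pathway, moved the other way, from 21.79, 11.47 and 12.66 TPM to 2.530, 1.974 and 5.180 TPM (log2 fold change -1.97, adjusted p = 0.016, limma). Only GENCODE places these bases in Fancc, whose deposited position does not cover them. On the other strand of the same bases lies Mir24-1, in an intron of Aopep, which had no read assigned.

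Mir186, in the splicing factor gene Zranb2, had 5, 2 and 4 reads against 8, 18 and 5, which did not pass (log2 fold change 1.17, SE 0.54, adjusted p = 0.16, limma), while Zranb2 fell from 94.89 to 30.38 TPM (adjusted p = 0.0075, limma). Mir7115 and its host Arrb2, an arrestin gene, had log2 fold changes of -1.05 and -1.04, of which that of Arrb2 passed (adjusted p = 0.083 and 0.038, limma) but not after median of ratios scaling, at -0.63. Mir3101, in the endosomal gene Rab4b, had 6, 5 and 0 reads against 17, 22 and 18, groups without overlap but with an adjusted p of 0.071 (log2 fold change 2.45, SE 0.82, limma). With the replicate as a block it passed, with an adjusted p of 0.021 (limma). Mir1898, in the RNA-binding protein gene Zfr, rose from 3, 8 and 6 to 10, 20 and 17 reads (log2 fold change 1.32, SE 0.37, adjusted p = 0.043, limma), and Zfr had a log2 fold change of 0.20 (adjusted p = 0.57, limma).

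Mir130b and Mir301b lie in the same host gene, which rose. Mir130b (chr16:16941925-16942006, minus strand) had 0, 0 and 4 reads in non-acclimated and 7, 12 and 4 in cold-acclimated libraries (log2 fold change 2.58, SE 0.70, adjusted p = 0.040, limma), a call lost with a pseudocount of 0.1 (adjusted p = 0.054). Mir301b (chr16:16942264-16942360, minus strand) had no non-acclimated read and 7, 4 and 4 cold-acclimated ones, 5.33-fold above the floor after scaling to library depth (adjusted p = 0.0070, limma). It had met the rule through cold-acclimated libraries alone, which fixed this direction. Both lie in an intron of 2610318N02Rik, which rose from 16.18, 15.98 and 25.07 TPM to 57.79, 28.24 and 55.21 TPM (log2 fold change 1.22, adjusted p = 0.044, limma). Mir301, of the same seed family and in an intron of Ska2, had 2 reads in all and was not tested.

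The cluster of Mir106b, Mir93 and Mir25, a paralogue of Mir17-92 in an intron of the replication gene Mcm7, gave few reads. Mir106b (chr5:138163999-138164080, minus strand) had 1, 0 and 0 reads against 3, 10 and 4, a ratio of depth-scaled reads of 18.1 with a 95% exact binomial interval of 2.84 to 757.2 (adjusted p = 0.024, limma). Mir93 had no non-acclimated read and 0, 5 and 4 cold-acclimated ones, 3.20-fold above the floor. It did not pass (adjusted p = 0.11, limma) but did with the replicate as a block (adjusted p = 0.046, limma). Mir93 had met the rule through cold-acclimated libraries alone, which fixed its direction, so these p-values are no independent support. Mir25 had 3, 0 and 27 reads against 4, 11 and 6, with overlapping groups (log2 fold change 0.74, SE 1.07, adjusted p = 0.65, limma). Mcm7 itself was at 136.9, 190.5 and 239.1 TPM without and at 17.62, 20.52 and 195.3 TPM with cold acclimation. Cold-acclimated replicate 3 was thus as high as the non-acclimated libraries, and Mcm7 did not pass (log2 fold change -2.11, SE 0.84, adjusted p = 0.11, limma), except with the replicate as a block (adjusted p = 0.024, limma).

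Mir23a and Mir24-2, from a cluster that restrains helper T cell effector functions, were seen in cold-acclimated libraries alone. Mir23a (chr8:84935147-84935221, plus strand) had 3, 2 and 1 reads there, 2.13-fold above the floor (adjusted p = 0.018, limma). Mir24-2 (chr8:84935444-84935550, plus strand) had 5, 8 and 1, 4.97-fold above the floor (adjusted p = 0.031, limma). Mir3074-2, which shares its bases on the opposite strand, had 0, 0 and 2 reads against 10, 3 and 1 and did not pass (adjusted p = 0.10, limma). Mir27a, the hairpin between them, was at 0 in all 6 libraries. Mir23a and Mir24-2 had met the rule through cold-acclimated libraries alone, which fixed their direction.

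Of the genes in an exon of the same strand, Mir3061 changed most. Mir3061 (chr11:52017573-52017663, plus strand), in a UTR exon of Ppp2ca, the catalytic subunit of protein phosphatase 2A, had 3, 9 and 23 reads in non-acclimated and 25, 96 and 141 in cold-acclimated libraries. The lowest cold-acclimated library was above the highest non-acclimated one, at 100.3 ± 61.79 against 12.62 ± 8.116 TPM (mean ± SD, n = 3 each), and the log2 fold change was 2.82 (SE 0.67, adjusted p = 0.027, limma). Ppp2ca stood at 472.3 to 518.2 TPM without and 500.4 to 649.3 TPM with cold acclimation (log2 fold change 0.18, adjusted p = 0.58, limma). The deposited position of Ppp2ca does not cover the hairpin, so its TPM may leave these bases out. Mir1839, in an exon of the noncoding gene 2900076A07Rik, had 1 read in each non-acclimated library and 5, 4 and 3 in the cold-acclimated ones, a ratio of 4.26 with an interval of 1.15 to 23.5 (adjusted p = 0.024, limma). Mir343, in coding sequence of the DNA repair helicase gene Ercc2, had 0, 0 and 1 against 3, 6 and 2, a ratio of 11.7 with an interval of 1.70 to 504.6 (adjusted p = 0.021, limma). Mir7666 had 0, 1 and 2 against 4, 3 and 4, a ratio of 3.91 with an interval of 1.03 to 21.8 (adjusted p = 0.048, limma, and 0.12 with a pseudocount of 0.1).

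The other calls rest on between 5 and 20 reads. Mir3058, in an intron of the inositol phosphate hydrolase gene Nudt4, had no non-acclimated read and 6, 3 and 9 cold-acclimated ones, 6.39-fold above the floor (adjusted p = 0.0070, limma). Mir6948, in the splicing-associated gene Acin1, had 2, 5 and 2, 3.20-fold above the floor (adjusted p = 0.0090, limma). Mir128-1, in R3hdm1, had 2, 2 and 1, 1.78-fold above the floor (adjusted p = 0.015, limma). These 3 had no read in any non-acclimated library. Like Mir1938, they met the rule through cold-acclimated libraries alone, which fixed their direction, so their p-values are no independent support. Mir1938 had 0, 0 and 1 reads against 3, 9 and 2, a ratio of 14.9 with an interval of 2.27 to 630.9 (adjusted p = 0.032, limma), and Mir677 had 0, 0 and 2 against 2, 5 and 4, a ratio of 5.86 with an interval of 1.28 to 54.4 (adjusted p = 0.036, limma, and 0.054 with a pseudocount of 0.1). Both lie opposite exons of noncoding genes with a TPM under 2 and in introns of the same-strand genes Ifrd1 and Atp5f1b.

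On the falling side, Mir7027, in the ubiquitin ligase gene Ube3b, had 3, 2 and 3 reads against 0 in all cold-acclimated libraries, 2.50-fold lower at the floor (adjusted p = 0.0074, limma). Mir7679, in the Schlafen gene Slfn9, had 3, 1 and 3 against 0, 2.19-fold lower at the floor (adjusted p = 0.012, limma). Both met the rule through non-acclimated libraries alone, which fixed their direction, so their p-values are no independent support. Their hosts Ube3b and Slfn9 had log2 fold changes of -1.24 and -1.86 and passed (adjusted p = 0.042 and 0.015, limma), Ube3b not after median of ratios scaling, at -0.84. Mir6924, in the ARF-regulating gene Acap1, had 2, 6 and 11 reads against 1, 0 and 0, a ratio of 0.0561 with an interval of 0.00135 to 0.353 (adjusted p = 0.015, limma), while Acap1 had a log2 fold change of -0.61 (adjusted p = 0.20, limma).

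The remaining genes gave no call. With at least 20 reads these were Mir3060 in Rnf215, Mir7-1 in Hnrnpk, Mir7650 in Taf1d, Mir1949 in Snhg4 and Mir1291 in Kansl2 among the intronic genes, Mir692-3, Mir6516, Mir1900, Mir8094 and Mir8099-1 among those in exons, Mir6236, Mir7240 and Mir6386 opposite introns, and Mir8099-2 between genes. Their fitted log2 fold changes had adjusted p of at least 0.079. Mir7-1, a locus of the widely conserved miR-7, had 6, 4 and 9 reads against 13, 16 and 7, while Hnrnpk, an abundant RNA-binding protein gene, had 551.0 and 791.4 TPM on average. Mir6516, in the noncoding RNA gene Snhg20, had 4, 3 and 19 against 20, 17 and 17 and passed only with a block (adjusted p = 0.044) or after median of ratios scaling (adjusted p = 0.046, limma). Mir8099-1 lies in a UTR exon of Tnfaip8l2, which fell (log2 fold change -1.33, adjusted p = 0.020, limma) but lost its call after median of ratios scaling, at -0.95, and Mir8099-2 is a full copy of that stretch elsewhere.

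Between 10 and 19 reads were seen for Mir12184, Mir6955, Mir697, Mir7079, Mir7001, Mir140, Mir3535, Mir12181 and Mir3473c in introns, for Mir3068, Mir3098, Mir324, Mir692-2, Mir7664, Mir8109, Mir5620 and Mir7036b in exons, and for Mir328 and Mir6376 opposite exons. Their hosts include Wwp2 for Mir140, a microRNA known from cartilage, Ncl for Mir3535, Rpl13 for Mir7079 and Cd82 for Mir7001. Mir3098, in a UTR exon of the mitochondrial ribosomal protein gene Mrpl51, had log2 fold changes of -1.45 for the microRNA gene and -1.44 for the host, of which that of the host passed (adjusted p = 0.10 and 0.015, limma). Mir324 and its host Dvl2 differed, at 0.65 and -2.24 (adjusted p = 0.64 and 0.0067, limma).

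Between 5 and 9 reads were seen for Mir6395, Mir6979, Mir7030, Mir6399, Mir6907, Mir7026, Mir7059, Mir1964, Mir6913, Mir7086, Mir7089, Mir6922, Mir7063, Mir7073 and Mir7655 in introns, Mir7050 and Mir6912 in exons, Mir6939 and Mir684-1 opposite exons and Mir378b and Mir669n opposite introns. Hosts of this group with a known part in T cells or in growth are Il10ra for Mir7086, Cdc25a for Mir7089 and Srebf1 for Mir6922. None of the genes in this paragraph was called, while other genes with as few reads were, and Mir7030 passed with the replicate as a block (adjusted p = 0.015, limma).

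Between 2 and 4 reads were seen for Mir26b, Mir3097, Mir3473a, Mir423, Mir5135, Mir6959, Mir6975, Mir7669, Mir12202, Mir1249, Mir491, Mir6976, Mir7053, Mir7647, Mir7651, Mirlet7g, Mir126a, Mir1943, Mir301, Mir3473d, Mir6957, Mir6966, Mir6997, Mir7036, Mir7049 and Mir7675 in introns, Mir12193, Mir191, Mir5100, Mir6904, Mir7052, Mirlet7i, Mir1945, Mir1956 and Mir339 in exons, Mir12178 opposite an exon and Mir695, Mir1195 and Mir6397 opposite introns. Several are well-known genes. Mirlet7g, in an intron of Wdr82, had 1 and 2 reads in cold-acclimated replicates 1 and 2 and none elsewhere. Mirlet7i had 1 and 2 reads in non-acclimated replicates 2 and 3 and 1 in cold-acclimated replicate 2. No fold change is given at these numbers.

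Most T cell microRNA loci were not seen at all. Of 56 listed loci 55 were in the table, and 45 of these were at 0 in every library. Mir363, with 3 reads, and Mir342, with 1, were seen in non-acclimated replicate 3 alone and did not meet the rule. The 8 that were among the 135 genes are those described above, Mir142, Mir23a, Mir24-2, Mir106b, Mir93, Mir25, Mirlet7g and Mirlet7i. Mir155 and Mir21a, both known from activated T cells, were at 0, while the host Mir155hg had 302, 185 and 672 reads in non-acclimated and 150, 131 and 174 in cold-acclimated libraries (log2 fold change -1.17, SE 0.35, adjusted p = 0.051, limma). With the replicate as a block Mir155hg passed (adjusted p = 0.018, limma). A value of 0 for a hairpin of this length therefore stood beside an expressed primary transcript.

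In the table, 89 genes spanned a microRNA gene of this set on the same strand, and 84 of these hosts were tested. Of these 4 rose and 12 fell, beside 2.63% and 16.0% of all genes, and the median log2 fold change was -0.08. After median of ratios scaling 11 rose and 2 fell, beside 6.87% and 8.6% of all genes, with a median of 0.32 beside 0.03.

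Of 50 listed genes of microRNA processing and function, 47 were tested, 1 rose and 5 fell, beside 2.63% and 16.0% of all genes, with a median log2 fold change of -0.34, that of all genes. After median of ratios scaling 3 rose and 3 fell, beside 6.87% and 8.6% of all genes, with a median of 0.07, and with the replicate as a block 8 fell, beside 21.9% of all genes. Ddx5, a helicase of the Microprocessor, rose from 499.7, 527.6 and 606.4 TPM to 1191, 1193 and 1164 TPM (log2 fold change 1.12, SE 0.21, adjusted p = 0.014, limma), whereas its paralogue Ddx17 fell from 141.0, 118.7 and 216.8 TPM to 36.41, 37.45 and 76.50 TPM (log2 fold change -1.68, SE 0.37, adjusted p = 0.021, limma). These related helicases thus moved in opposite directions without overlap between the conditions. Drosha, the nuclease of the complex, was at 54.19, 64.39 and 89.95 TPM against 21.90, 19.09 and 53.75 TPM and did not pass (log2 fold change -1.23, adjusted p = 0.070, limma), but did with the replicate as a block (adjusted p = 0.013, limma). Dgcr8, its RNA-binding partner, was at 7.447, 12.74 and 20.71 TPM against 5.047, 5.748 and 8.745 TPM (log2 fold change -0.89, adjusted p = 0.14, limma).

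In the later steps, Xpo5 was at 80.47, 113.1 and 93.09 TPM against 73.81, 69.05 and 58.33 TPM and Dicer1 at 21.84, 21.38 and 27.03 TPM against 14.53, 15.04 and 13.79 TPM, neither past the threshold (adjusted p = 0.16 and 0.076, limma). Ago2, the slicing Argonaute, was at 49.58, 43.31 and 53.44 TPM against 30.83, 34.45 and 39.23 TPM, lower in each cold-acclimated library but not past the threshold (log2 fold change -0.48, adjusted p = 0.16, limma). The largest changes were in genes that act with Argonaute. Tnrc6c, a GW182 scaffold that brings in the deadenylases, fell from 26.31, 30.57 and 29.07 TPM to 1.842, 3.191 and 4.364 TPM (log2 fold change -2.89, SE 0.30, adjusted p = 0.0067, limma), and the RNA helicase gene Mov10 from 85.41, 137.4 and 82.92 TPM to 14.24, 17.02 and 22.36 TPM (log2 fold change -2.43, SE 0.29, adjusted p = 0.0070, limma). Both kept their call without any of the 6 libraries. Tnrc6b, of the same family as Tnrc6c, fell from 11.83, 10.90 and 9.551 TPM to 2.427, 3.619 and 5.651 TPM (log2 fold change -1.31, adjusted p = 0.027, limma). The editing enzyme gene Adar fell from 112.8, 166.7 and 67.69 TPM to 41.93, 50.32 and 46.82 TPM (log2 fold change -1.21, adjusted p = 0.042, limma), and both lost their call after median of ratios scaling. Tnrc6b, Adar, Ddx5 and Ddx17 were also lost without replicate 1 or 2 of either condition, and Adar without cold-acclimated replicate 3, with adjusted p of up to 0.13 (limma).

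**Figure D5:**
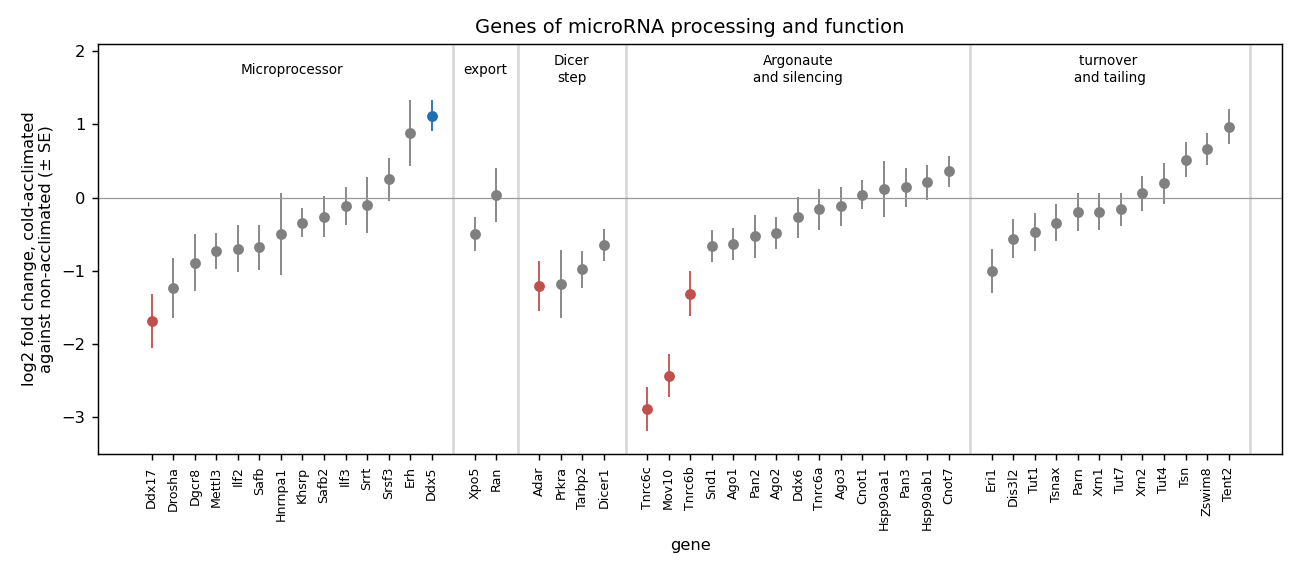
log2 fold change with its SE (vertical axis) of the 47 tested genes of microRNA processing and function, grouped by step, with called genes in blue (rose) and red (fell) and the others in grey. Ddx5 at 1.12 is the called gene above 0, and Ddx17, Adar, Tnrc6c, Mov10 and Tnrc6b are the called genes below it.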

How the data were processed

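Poly(A)+ RNA of 6 libraries was sequenced. The authors used Trimmomatic for trimming, HISAT2 for alignment to GRCm39, featureCounts for counting and DESeq2 for testing. The annotation release, the strand setting and how TPM were computed were not given in the sources used here. The deposited values are TPM as the authors scaled them, with no further scaling between libraries. Read numbers were recovered as whole multiples (within 1e-06) of the TPM of 1 read for 100% of the 21195 genes above 0, giving 16900261 to 31291839 reads per library. Intervals cover counting error only, and the floor covers it only for the condition without reads. The labels mention old and new RNA extraction batches without saying which library belongs to which.

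log2(TPM + 1) was fitted with limma 3.58.1 (mean-variance trend, two-sided, Benjamini-Hochberg) in R 4.3.3 over 12227 genes whose TPM averaged 1 or more, after a test on simulated data. Alternatives were a pseudocount of 0.1, no filter, median of ratios scaling, voom on recovered reads, the replicate as a block and leaving out each library in turn, and, added after Cd4 was seen, leaving out both replicate 3 libraries. Folds against a condition without reads use a floor of 3 reads over that condition, and ratios of depth-scaled reads have 95% exact binomial intervals. Deviations from the condition mean correlated at 0.48, 0.50 and 0.51 between libraries of the same replicate number. Otherwise they correlated at -0.41 to 0.02, so the numbers pair the libraries. The main fit has no term for this pairing, which only the alternative with the replicate as a block takes into account. Hairpins were compared with GENCODE transcripts by blastn 2.17.0 (identity of at least 90% over at least 80%).

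Every microRNA gene is named. Values per library are given for called genes, the 8 with the highest mean TPM and the listed T cell loci among them, and for processing genes that were called plus Drosha, Dgcr8, Xpo5, Dicer1 and Ago2; other genes given with values were chosen after these were seen. The microRNA genes and gene lists were chosen with earlier results of these data known.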

Additional observations from a re-analysis of the deposited data

How the results depend on the processing

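Of all genes, 321 rose and 1954 fell, 184 and 1121 without the filter on low values, 840 and 1052 after median of ratios scaling, 653 and 3088 without both replicate 3 libraries, and 59 to 459 and 345 to 2725 when libraries were left out in turn. Of the microRNA genes, 16 rose and 8 fell. Here 7 rose without the filter, 3 rose and 4 fell with voom, 27 rose without both replicate 3 libraries, and 3 to 18 rose and 4 to 10 fell with libraries left out in turn. Of the processing genes, 1 rose and 5 fell. Here 2 rose with a pseudocount of 0.1 and with voom, 3 rose and 3 fell after median of ratios scaling, 2 fell without the filter, 8 fell with the replicate block, 9 fell without both replicate 3 libraries, and 0 to 1 rose and 2 to 8 fell with libraries left out in turn. Of the hosts, 4 rose and 12 fell. Here 2 rose without the filter, 11 rose and 2 fell after median of ratios scaling, 9 rose without both replicate 3 libraries, and 0 to 8 rose and 1 to 17 fell with libraries left out in turn. The cause of these shifts was not tested.

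The direction turned for genes that had not passed, and, after median of ratios scaling, for Zfp27, opposite Mir7668, to 0.04. Mir142b was at 0.25 and Mir762 at 0.35 (log2 fold change) after median of ratios scaling, Mir762 at 0.07 with voom and Mir142b at 0.56 without both replicate 3 libraries. With libraries left out in turn the log2 fold change ran from -0.53 to 0.25 for Mir142b, -0.49 to 1.90 for Mir25, -0.01 to 0.95 for Mir3064, -0.13 to 0.92 for Mir682, -0.29 to 0.91 for Mir703 and -0.21 to 0.14 for Mir762. With the replicate block all 24 called microRNA genes were called again, 21 rose and 8 fell, beside 3.75% and 21.9% of all genes, and beside the calls printed with the results it added Mir7079 and Mir7030 and, among processing genes, Prkra and Eri1. The median of 10 reads per gene limits what these libraries can show, and 32 of the 135 genes were too low to be tested.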
